A study of Mus musculus with 4 samples.

Results

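Interferon regulatory factors, or IRFs, are transcription factors that share a DNA-binding domain and read GAAA-type elements, alone or with partner proteins. The 8 IRF genes described here, Irf1, Irf2, Irf3, Irf4, Irf5, Irf7, Irf8 and Irf9, were found by gene symbol among 17478 genes listed in at least 1 of 4 RNA sequencing libraries. All 4 libraries came from CD4+ T cells of C57BL/6 mice aged 6 to 8 weeks. The 2 BFAR-KO libraries came from mice with a T cell-restricted deficiency of Bfar, given as genotype BFAR-/-, and the 2 WT libraries from wild-type mice. In both genotypes, cells sorted as naive (CD44 low, CD62L high) from spleen and lymph nodes were activated through CD3 and CD28 and kept for 3 days in a Th9 culture, which drives helper T cells to secrete interleukin 9. Which Cre line and which exons were used was not stated in the labels. Nor do they state whether replicates came from separate mice, so a p-value covers the spread among the 4 samples only, and this spread may be technical.

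In T cells, IRF4 is induced by antigen receptor signalling and works with BATF and JUN proteins at composite elements. It is required for Th9, Th2 and Th17 programs, and Il9 is among its direct targets. IRF8 is the close relative of IRF4 and takes part with it in the Th9 factor complex, whereas IRF1, induced by interferon gamma, favours Th1 genes and has been described as opposing IRF4 at Il9. IRF2 competes with IRF1 for the same sites, IRF9 is the DNA-binding subunit of the ISGF3 complex, which also holds STAT2, and IRF3, IRF5 and IRF7 are held inactive until innate sensors trigger their phosphorylation.

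The libraries held 19321076 and 19058009 expected counts in BFAR-KO and 19782923 and 19736182 in WT. Bfar, the targeted gene, had 2.88 and 2.57 FPKM (fragments per kilobase of transcript, scaled to library depth) in BFAR-KO and 12.1 and 11.2 FPKM in WT, which matched the labels. Il9, the gene that defines the culture, had 467.5 and 529.9 FPKM in BFAR-KO and 1058 and 994.6 FPKM in WT. Of 12677 genes tested with edgeR, 26.8% changed at an adjusted p under 0.05, with 13.6% higher and 13.2% lower in BFAR-KO. With all libraries 1728 genes rose and 1670 fell. These numbers were 812 and 629 without BFAR-KO replicate 2, 1030 and 864 without BFAR-KO replicate 1, 1128 and 1011 without WT replicate 1, and 1243 and 1112 without WT replicate 2. All 7 T cell markers examined were present in every library, with summed levels of 973.7 and 946.3 FPKM in BFAR-KO and 868.9 and 872.5 FPKM in WT, and 5 of them (Cd3e, Cd3g, Cd247, Cd4 and Cd28) rose in BFAR-KO.

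The IRF genes spanned more than 3 orders of magnitude in level, and their order was the same in both genotypes. Irf4 led with a mean of 380.4 ± 7.28 FPKM in BFAR-KO and 362.0 ± 4.82 FPKM in WT (SD, n = 2 each), and 99.1% of all listed genes had a lower mean. Irf8 came next with 132.0 ± 7.42 FPKM in BFAR-KO and 150.9 ± 3.75 FPKM in WT. Both stood clear of the rest. Irf5 averaged 30.2 ± 2.36 FPKM in BFAR-KO and 40.7 ± 2.83 FPKM in WT, and Irf3 averaged 28.1 ± 2.35 FPKM in BFAR-KO and 32.5 ± 0.247 FPKM in WT. Irf2, Irf9 and Irf1 followed at means of 19.3, 16.6 and 9.25 FPKM in BFAR-KO and 18.7, 15.5 and 7.99 FPKM in WT. Irf7 was last, at 0.18 and 0.38 FPKM in BFAR-KO and 0.11 FPKM in each WT library. Every neighbour in this order was separated from the next by more than the range of its 2 libraries, except that Irf5 and Irf3 overlapped in BFAR-KO.

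**Figure D1:**
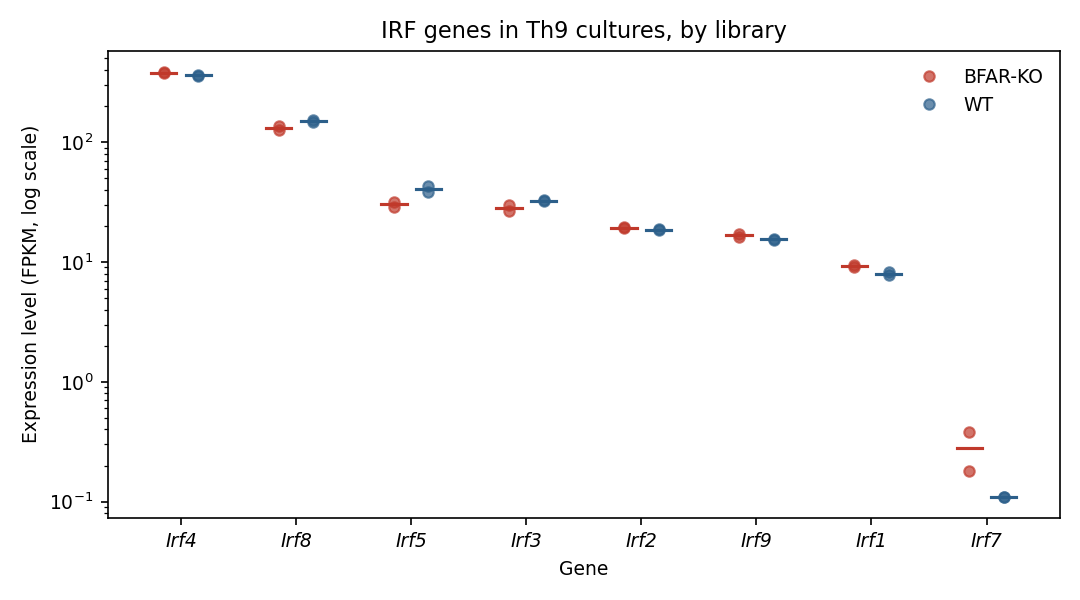
Levels of the 8 IRF genes in FPKM on a log scale, with BFAR-KO libraries in red to the left of WT libraries in blue. Each point is a library and each bar the mean of 2 libraries. Irf4, with means of 380.4 FPKM in BFAR-KO and 362.0 FPKM in WT, and Irf8 stand above the other genes, and Irf7 lies below 1 FPKM.

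Of the 7 IRF genes that passed the filter on low counts, Irf3, Irf5 and Irf8 fell in BFAR-KO cells and none rose. That is 42.9% called, against a background of 26.8% of all tested genes, and 3 lower against a background of 13.2%. The difference from the background was not tested. With no adjustment, 2 members (Irf1 and Irf4) were higher and 3 lower at edgeR p under 0.05. The share of all genes at that unadjusted threshold is not given, so these counts have no background. DESeq2 called 2 lower members (Irf5 and Irf8) and 0 higher, against 5.91% and 6.79% of all genes, or 12.7% in either direction. The count of lower members was 1 without BFAR-KO replicate 2 (background 4.84%), 2 without WT replicate 1 (7.78%) or WT replicate 2 (8.55%), and 3 without BFAR-KO replicate 1 (6.65%). It was 1 when genes with low counts were kept (5.03%) and 0 with unfiltered FPKM values (0.664%), and with the replicate number as a block 1 member, Irf4, was called higher (15.6%). The BFAR-KO and WT libraries did not overlap for any of the 8 genes, in CPM (counts scaled to library size), a separation shared by 63.5% of all tested genes. The median log2 fold change of the 7 was 0.06, and that of all tested genes was -0.002.

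**Figure D2:**
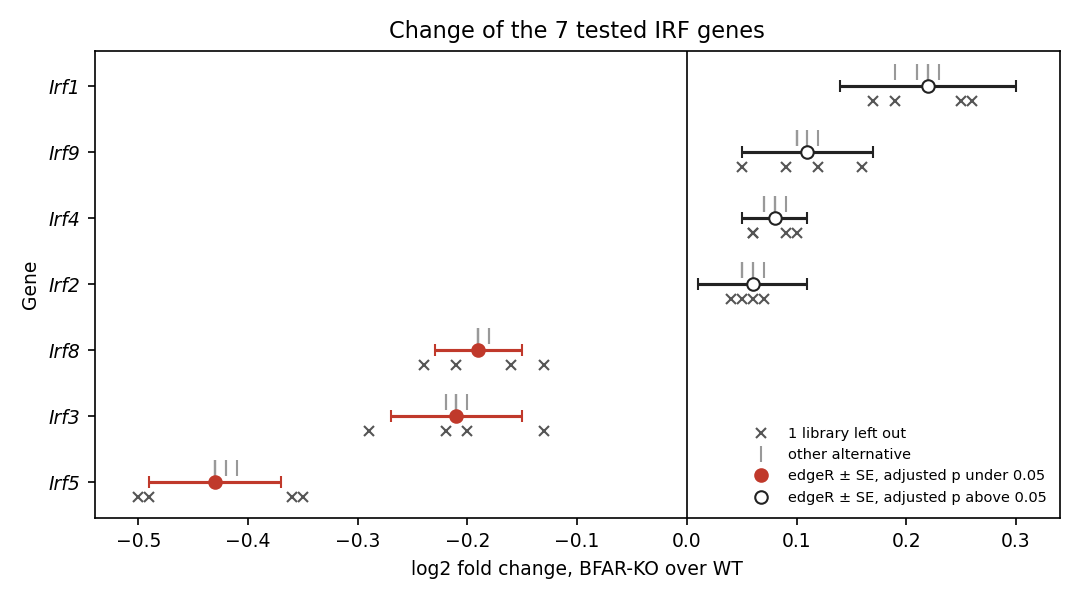
The log2 fold change, BFAR-KO over WT, of the 7 tested IRF genes. Circles with bars are edgeR estimates ± SE from all 4 libraries, red where the adjusted p was under 0.05, crosses are fits without 1 library and ticks the other alternatives. Irf5 at -0.43, Irf3 at -0.21 and Irf8 at -0.19 lie to the left of 0 in every fit, and the other 4 lie to the right.

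The promoter sequences below are shown for the most abundant member, for the 2 members that fell most firmly and for Irf1, whose inducer acts through a known promoter element. They are RefSeq windows of GRCm38.p6, 250 bases before to 50 after an annotated start, on the strand of the gene. Capitals mark matches, on either strand, to the gamma-activated site TTCNNNGAA, which STAT dimers bind, and to TATAAA. The windows are chr13:30748983-30749282 for Irf4, chr8:120736108-120736407 for Irf8, chr6:29526375-29526674 for Irf5 and chr11:53769764-53770063 for Irf1, all on the plus strand.
Irf4: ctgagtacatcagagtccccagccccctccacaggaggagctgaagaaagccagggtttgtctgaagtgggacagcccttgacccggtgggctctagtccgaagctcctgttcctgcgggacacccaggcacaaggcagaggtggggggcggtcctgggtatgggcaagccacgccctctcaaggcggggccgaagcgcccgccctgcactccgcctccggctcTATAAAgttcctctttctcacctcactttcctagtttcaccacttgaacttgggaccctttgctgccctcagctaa
Irf8: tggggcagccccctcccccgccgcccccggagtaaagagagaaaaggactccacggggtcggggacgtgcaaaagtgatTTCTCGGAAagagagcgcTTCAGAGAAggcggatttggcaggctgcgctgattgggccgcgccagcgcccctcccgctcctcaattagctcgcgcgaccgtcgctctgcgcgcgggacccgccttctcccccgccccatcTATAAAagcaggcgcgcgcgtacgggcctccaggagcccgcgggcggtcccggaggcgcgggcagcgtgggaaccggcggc
Irf5: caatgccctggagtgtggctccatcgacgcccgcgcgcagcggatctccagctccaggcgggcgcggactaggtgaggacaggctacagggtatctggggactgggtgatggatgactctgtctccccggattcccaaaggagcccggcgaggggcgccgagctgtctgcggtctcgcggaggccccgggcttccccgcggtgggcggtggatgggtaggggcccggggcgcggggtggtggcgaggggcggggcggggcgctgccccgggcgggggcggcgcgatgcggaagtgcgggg
Irf1: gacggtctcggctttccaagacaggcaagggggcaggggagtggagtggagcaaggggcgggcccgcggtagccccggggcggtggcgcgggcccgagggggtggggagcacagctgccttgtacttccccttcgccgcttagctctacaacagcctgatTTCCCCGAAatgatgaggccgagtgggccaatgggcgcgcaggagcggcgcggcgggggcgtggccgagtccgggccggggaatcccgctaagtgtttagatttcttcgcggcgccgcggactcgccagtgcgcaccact
Counted from the annotated start, Irf8 held gamma-activated site matches at positions -171 and -153, and a TATAAA at -31. Irf1 had 1 such site at -90 and no TATAAA. Irf4 had a TATAAA at -26, and Irf5 had neither. Among all 8 genes the gamma-activated site also occurred in Irf2, at -224, where the member set's only match to the interferon-stimulated element, written as GAAA, any 2 bases and GAAA, lay at -241. The windows of Irf3 and Irf9 held none of these 3 motifs, and Irf7 held a TATAAA at -29. Of 32851 RefSeq promoter windows of the same length, 8.3% held the gamma-activated site, 3.44% the interferon-stimulated element and 13.6% TATAAA. The AP-1 motif TGANTCA and the ETS motif CCGGAA, in 7.81% and 14.9% of all windows, had no match in any member. The NF-kB motif, searched as GGG and CC with any 5 bases between, was in the main window of every member except Irf9, and in 50.8% of all windows. The windows of Irf5, Irf8 and Irf1 were 74.7%, 70.0% and 69.3% G and C, against a median of 52.7%, and that of Irf4 was 61%. Members that fell and members that did not pass the test were thus both found with and without a gamma-activated site.

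Irf4, the factor that Th9 cells require, did not pass the test. It had 375.3 and 385.6 FPKM in BFAR-KO libraries, against 358.6 and 365.4 FPKM in WT libraries. Both BFAR-KO libraries were slightly above both WT libraries. Its log2 fold change measured 0.08 ± 0.03 (SE, 2 libraries each) with an adjusted p of 0.1 in edgeR and a 95% interval of 0.01 to 0.15 before adjustment for the number of genes. Its locus is gene 16364 on chromosome 13, 30749233 to 30766981. Irf4 was thus at 1.05 times its WT level in cultures in which its target Il9 fell, with a log2 fold change of -1.04 ± 0.05 (adjusted p in edgeR, 1.89e-09).

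Irf8, the partner and relative of IRF4, fell in BFAR-KO cells. It had 137.3 and 126.8 FPKM in BFAR-KO libraries and 153.6 and 148.3 FPKM in WT libraries. Both BFAR-KO libraries were below both WT libraries, and the gap between the nearest libraries of the genotypes was close in size to the gap within BFAR-KO. The log2 fold change was -0.19 ± 0.04 (edgeR adjusted p = 0.00365; DESeq2 adjusted p = 0.00175). The call was lost without BFAR-KO replicate 2 (-0.13, edgeR adjusted p = 0.0958). It was also lost when genes with low counts were kept (edgeR adjusted p = 0.0551) and with unfiltered FPKM values (limma adjusted p = 0.136). Irf8 (gene 15900) lies on chromosome 8, 120736358 to 120756694.

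Irf5, best known from macrophages and B cells as a switch for inflammatory cytokines, showed the largest change of the 7 tested members. Its levels were 31.9 and 28.5 FPKM in BFAR-KO libraries and 38.7 and 42.7 FPKM in WT libraries. The groups were well apart, since the highest BFAR-KO library lay below the lowest WT library by more than the range within either genotype. Irf5 fell to 0.744 of the WT level, a log2 value of -0.43 ± 0.06 (adjusted p in edgeR, 7.62e-05). The fall was called whichever library was left out, when it measured between -0.50 and -0.35 (highest edgeR adjusted p = 0.0233). It was lost only with unfiltered FPKM values (limma adjusted p = 0.0887). Irf5 (gene 27056) is on chromosome 6, 29526130 to 29541869.

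Irf3, the constitutively made factor that the kinase TBK1 activates, also fell, less firmly. It had 29.7 and 26.4 FPKM in BFAR-KO libraries, against 32.4 and 32.7 FPKM in WT libraries. The WT libraries were almost equal and the BFAR-KO libraries spread more widely below them. Its log2 fold change was -0.21 ± 0.06 (edgeR adjusted p = 0.0131). The call was lost without BFAR-KO replicate 2 (-0.13, edgeR adjusted p = 0.175), without WT replicate 1 (0.0584) and without WT replicate 2 (0.0696). It was also lost in DESeq2 (adjusted p = 0.109), with no filter on low counts (0.0946) and in limma on FPKM values (0.06 to 0.176). Irf3 (gene 54131) is on chromosome 7, 44997648 to 45002848.

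Because Irf5 and Irf8 are abundant in B cells and myeloid cells, markers of those cells were examined beside them. The summed level of 7 B cell markers was 4.77 and 4.28 FPKM in BFAR-KO and 4.79 and 5.21 FPKM in WT, and none of the 4 with enough counts passed the test. Most of the sum came from Cd79b, with 2.98 and 2.42 FPKM in BFAR-KO and 3.65 and 3.82 FPKM in WT (edgeR adjusted p = 0.0623). The other 6 summed to 1.79 and 1.86 FPKM in BFAR-KO and 1.14 and 1.39 FPKM in WT, so the lower sum in BFAR-KO rested on Cd79b. Among them, Cd79a had 0.59 and 0.80 FPKM in BFAR-KO and 0.38 and 0.31 FPKM in WT (edgeR adjusted p = 0.0919), and Ms4a1, which encodes the B cell surface protein CD20, reached at most 0.05 FPKM. The 7 dendritic cell markers summed to 2.65 and 2.13 FPKM in BFAR-KO and 1.74 and 2.55 FPKM in WT. Xcr1 rose, with 0.53 and 0.58 FPKM in BFAR-KO and 0.27 and 0.22 FPKM in WT (edgeR adjusted p = 0.00352). Itgax had 0.20 and 0.11 FPKM in BFAR-KO and 0.27 and 0.35 FPKM in WT (edgeR adjusted p = 0.0726), and Zbtb46 had a log2 fold change of -0.29 with overlapping groups. H2-Aa had 0.87 and 0.44 FPKM in BFAR-KO and 0.14 and 0.52 FPKM in WT, with overlapping groups (log2 0.98, edgeR adjusted p = 0.222). Flt3, Siglech and Clec9a were at or below 0.07 FPKM. Of 7 monocyte and macrophage markers, Csf1r and Lyz2 were at 0 in all 4 libraries, and the sum was 0.21 to 0.26 FPKM in BFAR-KO and 0.22 to 0.25 FPKM in WT. The part of these cells in the fall of Irf5 and Irf8 was not tested. In bulk RNA, fewer cells that express a gene and less of its RNA per cell cannot be told apart.

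Irf1 and Irf2, an activator and its competitor, were both slightly higher in BFAR-KO without passing the test. Irf1 had 9.05 and 9.45 FPKM in BFAR-KO libraries and 8.25 and 7.73 FPKM in WT libraries. The log2 fold change of Irf1 was 0.22 ± 0.08 (edgeR adjusted p = 0.0725), with an unadjusted 95% interval of 0.04 to 0.40. Irf1 did not pass in any of the 12 alternatives, whose adjusted p ranged from 0.0601 to 0.436. Irf2 was the steadiest member, with 19.5 and 19.1 FPKM in BFAR-KO and 18.6 and 18.7 FPKM in WT (log2 0.06 ± 0.05, edgeR adjusted p = 0.485, interval -0.06 to 0.17). Irf1 is on chromosome 11, 53770014 to 53778374, and Irf2 on chromosome 8, 46739745 to 46847458.

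Irf9 and Irf7, the members tied most closely to type I interferon, were not called. Irf9 had 17.2 and 16.0 FPKM in BFAR-KO and 15.3 and 15.7 FPKM in WT, or 0.11 ± 0.06 on the log2 scale (adjusted p in edgeR, 0.232, interval -0.03 to 0.24). The interval of Irf9 holds 0 and reaches further above it than below. The smallest difference that this depth and replication could detect was not worked out. Irf7, the amplifier of the type I interferon response, had 6 and 13 counts in BFAR-KO and 4 and 4 counts in WT, and was removed by the filter. With no filter its edgeR adjusted p was 0.263, and over the 5 alternatives that gave it an adjusted p this ranged from 0.0947 to 0.378. Irf9 is on chromosome 14, 55603985 to 55610030, and Irf7 on chromosome 7, 141263183 to 141266499, on the minus strand.

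The balance among IRF transcripts within a library differed between the genotypes, which is given as values with no test. Irf4 made up 60.5% and 63.0% of the summed FPKM of the 8 genes in BFAR-KO and 57.3% and 57.9% in WT, and Irf8 made up 22.1% and 20.7% in BFAR-KO and 24.5% and 23.5% in WT. The sum itself was 620.2 and 612.3 FPKM in BFAR-KO and 625.5 and 631.3 FPKM in WT. The ratio of Irf4 to Irf8 was 2.73 and 3.04 in BFAR-KO and 2.34 and 2.46 in WT. The ratio of Irf4 to Irf5 was 11.8 and 13.5 in BFAR-KO and 9.26 and 8.55 in WT. In both ratios the genotypes did not overlap, which follows from the levels of the single genes given above and adds no separate evidence. The ratio of Il9 to Irf4 was 1.25 and 1.37 in BFAR-KO and 2.95 and 2.72 in WT. At nearly the same Irf4 level, each BFAR-KO library thus held less Il9 RNA per unit of Irf4 RNA than either WT library. This ratio restates the fall of Il9 and also adds no separate evidence.

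**Figure D3:**
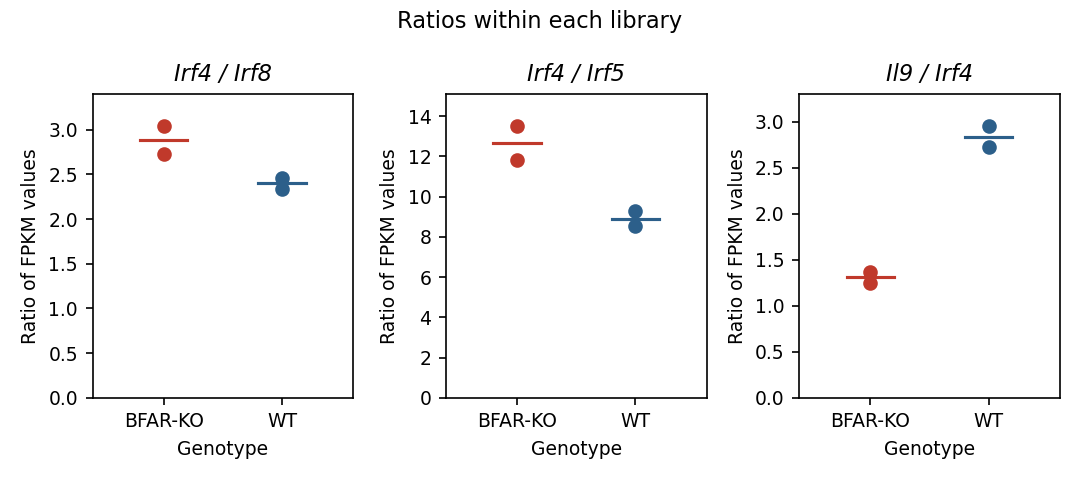
Ratios of FPKM values of 2 genes within a library, BFAR-KO in red to the left of WT in blue. Points are libraries and bars are means of 2. Irf4 over Irf8 and Irf4 over Irf5 are higher in both BFAR-KO libraries, and Il9 over Irf4 is lower, at 1.25 and 1.37 against 2.95 and 2.72 in WT.

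Several members share exonic bases with a neighbour in GENCODE M21, and the strand setting of the counting is not given, so reads there cannot be assigned with certainty. Irf5 shares 411 bases with Tnpo3, a nuclear import receptor gene on the opposite strand, which measured -0.07 ± 0.04 on the log2 scale (adjusted p in edgeR, 0.242). Irf3 shares 88 bases with Bcl2l12, on the opposite strand, which had 0.16 ± 0.07 (adjusted p = 0.118). Neither neighbour passed the test. Irf9 shares 123 bases with Rnf31 on the same strand (0.14 ± 0.05, edgeR adjusted p = 0.0422, and above 0.05 without WT replicate 1, WT replicate 2 or BFAR-KO replicate 2). Irf1 shares 135 bases with Gm17334 and Irf7 45 bases with Phrf1. No member had a near-identical copy: at most 4.24% of a member's 31-base words, in Irf9, occurred in transcripts of other genes.

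The proteins that bind DNA together with IRFs went both ways. Their list and those below were chosen with earlier results of these data known. No difference of a list from all tested genes was tested. Of 15 tested partners 5 rose and 3 fell in BFAR-KO, 53.3% called against 26.8% of all tested genes (13.6% higher and 13.2% lower), with a median log2 fold change of 0.02. The AP-1 gene Fosl2 rose most firmly, with 44.2 and 48.7 FPKM in BFAR-KO and 29.3 and 28.5 FPKM in WT (log2 0.69 ± 0.05, edgeR adjusted p = 6.61e-08). Junb, which pairs with BATF beside IRF4, rose by 0.18 ± 0.03 to 464.9 and 461.4 FPKM in BFAR-KO, against 417.5 and 403.7 FPKM in WT. Jund fell by 0.21 ± 0.04, a call lost without BFAR-KO replicate 2 (edgeR adjusted p = 0.0648). Stat2, the partner of IRF9 in ISGF3, rose to 11.9 and 12.1 FPKM in BFAR-KO, against 9.23 and 9.25 FPKM in WT (log2 0.38 ± 0.05). Batf, which encodes a partner of IRF4 at composite elements, had 91.1 FPKM in each BFAR-KO library and 95.7 and 90.1 FPKM in WT (log2 -0.02 ± 0.05, edgeR adjusted p = 0.759). The groups overlapped for Batf. Its relative Batf3 was called lower, with 67.4 and 77.5 FPKM in BFAR-KO and 84.3 and 81.0 FPKM in WT (log2 -0.19 ± 0.06, edgeR adjusted p = 0.0422). That call lay close to the threshold of 0.05 and was lost without BFAR-KO replicate 1. Spi1, which encodes the Th9 factor PU.1, was at most 0.18 FPKM and was not tested. Fewer partners were called higher, and fewer lower, whichever library was left out. Calls over all tested genes also dropped in these fits.

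Among 12 proteins that bind, modify or degrade IRFs, 1 rose and 4 fell (41.7% called, against 26.8% of all tested genes, with 13.6% higher and 13.2% lower; median log2 fold change 0.03). Irf2bp1, a corepressor of IRF2, fell by 0.34 ± 0.06 (edgeR adjusted p = 0.000804). Its levels were 14.1 and 13.9 FPKM in BFAR-KO and 18.5 and 16.9 FPKM in WT. Fkbp4, an immunophilin that binds IRF4, fell by 0.16 ± 0.04 (edgeR adjusted p = 0.00639, and 0.0847 without BFAR-KO replicate 1). Def6, which binds IRF4 and restrains it, had 0.12 ± 0.04 (edgeR adjusted p = 0.0341) and lost its call whichever library was left out. Fewer of the 12 were called lower whichever library was left out. Fewer were called higher without WT replicate 1 or either BFAR-KO replicate. Calls over all tested genes also dropped in these fits.

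Among sensors, adaptors and kinases that activate IRF3, IRF5 and IRF7, 3 of 20 tested genes fell and 0 rose. The share called was 15% against 26.8% of all tested genes, and the share that fell was 15% against 13.2%, with a median log2 fold change of 0.01. With no adjustment 1 was higher and 4 were lower at p under 0.05, with no share of all genes given at that threshold. DESeq2 called 0 higher and 3 lower, against 6.79% and 5.91% of all genes. Ikbke, an IRF3 kinase, had an edgeR adjusted p of 0.0696. It passed as higher with upper-quartile factors in place of TMM (edgeR adjusted p = 0.0498) and with the replicate number as a block (0.0386). It also passed without WT replicate 1 (log2 0.2). Tmem173, which encodes the DNA-sensing adaptor STING upstream of IRF3, fell to 52.6 and 50.2 FPKM in BFAR-KO, against 62.7 and 63.6 FPKM in WT (log2 -0.29 ± 0.04, edgeR adjusted p = 0.000138). Tlr7, an RNA sensor that signals to IRF5 and IRF7, fell to 2.74 and 3.01 FPKM in BFAR-KO, against 4.57 and 4.27 FPKM in WT (log2 -0.62 ± 0.10). Traf3, a ubiquitin ligase upstream of IRF3, fell by 0.20 ± 0.05 (edgeR adjusted p = 0.00481, but 0.0541 without WT replicate 1 and 0.093 without BFAR-KO replicate 2). The kinase gene Tbk1 had 11.3 and 11.9 FPKM in BFAR-KO and 11.4 and 11.6 FPKM in WT (edgeR adjusted p = 0.884).

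Interferon receptors and the proteins that signal from them mostly rose where they were called. Of 14 tested genes 6 rose and 2 fell (57.1% called, against 26.8% of all tested genes, with 13.6% higher and 13.2% lower; median log2 fold change 0.07). Ifngr1, the ligand-binding chain of the interferon gamma receptor, rose to 19.2 and 19.8 FPKM in BFAR-KO, against 13.84 and 14.99 FPKM in WT (log2 0.44 ± 0.06, edgeR adjusted p = 0.000143). Ifnar1, a chain of the type I receptor, rose by 0.31 ± 0.04. The feedback inhibitor Socs3 rose by 0.49 ± 0.05, to 39.5 and 42.6 FPKM in BFAR-KO, against 29.3 and 29.2 FPKM in WT. Jak2 and Ptpn11 were the 2 that fell, and fewer were called lower whichever library was left out. Calls over all tested genes also dropped in these fits. Of 9 interferon genes, 3 were listed and only Ifng was tested, with 39 and 37 counts in BFAR-KO and 10 and 20 counts in WT (edgeR adjusted p = 0.0059). Ifng shares 22.6% of its 31-base words with other genes, so its value is uncertain. Its adjusted p was 0.0983 without WT replicate 1, 0.0747 without BFAR-KO replicate 1 and 0.0758 without BFAR-KO replicate 2.

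Genes that ISGF3, and so IRF9, activates were in part too low to test. Of 26, 15 passed the filter on low counts, 5 of them rose and 0 fell (33.3% called, against 26.8% of all tested genes, with 13.6% higher and 13.2% lower; median log2 fold change 0.23). With no adjustment 7 were higher and 1 lower at p under 0.05, with no share of all genes given at that threshold. DESeq2 called 3 higher and 0 lower, against 6.79% and 5.91% of all genes. Usp18, which removes ISG15 and damps the type I receptor, rose to 13.4 and 14.8 FPKM in BFAR-KO, against 7.02 and 7.52 FPKM in WT (log2 0.96 ± 0.09, edgeR adjusted p = 2.12e-06). Parp9 and Dtx3l, which form a complex, rose by 0.43 ± 0.05 and 0.42 ± 0.07. Samd9l had 0.36 ± 0.11 (edgeR adjusted p = 0.0248) and lost its call whichever library was left out. Fewer were called higher whichever library was left out, as was so over all tested genes. Without WT replicate 1, and with the replicate number as a block, a gene of this list was also called lower.

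Targets of IRF1, many of them genes of antigen presentation and cell-autonomous defence, were called in 1 direction. Of 23 tested, 9 rose and 0 fell (39.1% called, against 26.8% of all tested genes, with 13.6% higher and 13.2% lower). The median log2 fold change was 0.17. With no adjustment 13 were higher and 1 lower at p under 0.05, with no share of all genes given at that threshold. DESeq2 called 5 higher and 0 lower, against 6.79% and 5.91% of all genes. Fewer targets were called higher without WT replicate 2 or either BFAR-KO replicate, as was so over all tested genes. More were called higher without WT replicate 1, where calls over all tested genes dropped. Without WT replicate 2, and with the replicate number as a block, a target was also called lower. Most of the 9 that rose were related genes of a single family, Gbp2, Gbp3, Gbp4, Gbp5, Gbp7 and Gbp8. The others were Tap1, Nlrc5 and Cdkn1a. The guanylate-binding protein gene Gbp5 rose to 2.73 and 2.96 FPKM in BFAR-KO, against 1.39 and 1.29 FPKM in WT (log2 1.10 ± 0.14, edgeR adjusted p = 4.31e-05). Gbp2 rose to 1.36 and 1.53 FPKM in BFAR-KO, against 0.69 and 0.51 FPKM in WT. Nlrc5, an activator of MHC class I genes, rose by 0.69 ± 0.10. Tap1, the peptide transporter, was more abundant, with 54.0 and 52.6 FPKM in BFAR-KO and 46.1 and 44.5 FPKM in WT, and rose by 0.24 ± 0.04. The immunoproteasome gene Psmb8 had 149.7 and 155.3 FPKM in BFAR-KO and 152.7 and 154.4 FPKM in WT, with overlapping groups (edgeR adjusted p = 0.948). Several guanylate-binding protein genes share many 31-base words with other genes, so their single values are uncertain. The share was 31.1% in Gbp8, 14.7% in Gbp7 and 14.3% in Gbp4, which rose, and 74.2% in Gbp6, which was not called. Gbp3 was called on 10 and 23 counts in BFAR-KO and 8 and 2 counts in WT.

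Targets of IRF4 changed in both directions. Of 20 tested, 9 rose and 4 fell (65% called, against 26.8% of all tested genes, with 13.6% higher and 13.2% lower; median log2 fold change 0.16). The list holds cytokines, lineage factors and metabolic genes, and Il9 was among those that fell. Because the list was chosen with earlier results of these data known, its share called is a description only. The difference from all tested genes was not tested. The glucose transporter gene Slc2a3 rose to 118.1 and 119.4 FPKM in BFAR-KO, against 56.9 and 60.3 FPKM in WT (log2 1.02 ± 0.04, edgeR adjusted p = 9.96e-11). Ctla4, an inhibitory receptor, rose by 0.72 ± 0.04, to 267.7 and 287.3 FPKM in BFAR-KO, against 164.1 and 173.6 FPKM in WT. Hif1a, the hypoxia factor, rose by 0.38 ± 0.04. Fewer of these targets were called higher whichever library was left out. Fewer were called lower without WT replicate 2 or either BFAR-KO replicate. Calls over all tested genes also dropped in these fits.

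**Figure D4:**
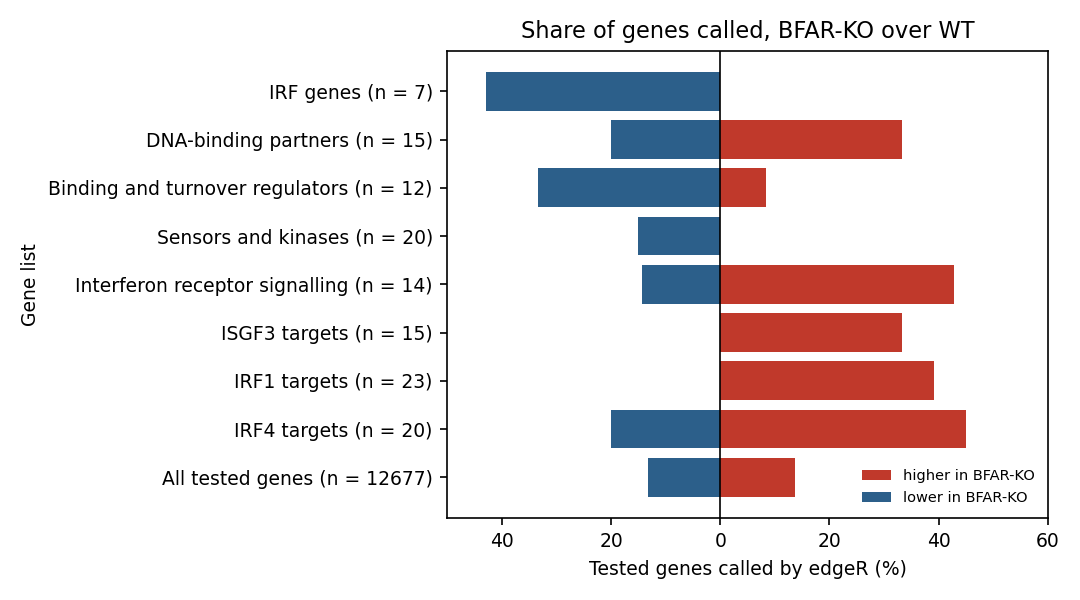
Percentage of the tested genes of each list that edgeR called at an adjusted p under 0.05, higher in BFAR-KO to the right of 0 and lower to the left, with the number tested in brackets. All tested genes, in the lowest row, had 13.6% higher and 13.2% lower. No difference of a list from that row was tested. The IRF genes themselves have calls only to the left, 3 of 7, and the ISGF3 and IRF1 targets only to the right.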

How the data were processed

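Messenger RNA was measured by RNA sequencing in 2 BFAR-KO and 2 WT libraries, grouped by the labels' titles. The submitters' processing notes name Bowtie, RSEM and the build GRCm38 (mm10), with no version. Per the file headers, each table deposited by the authors gives an expected count (an estimate that need not be whole), an FPKM value and a gene length. The annotation release, strand setting and earlier filters were not found in the labels or headers. A gene absent from a library's table counts as 0 in it (lowest listed FPKM, 0.01). The labels name no batch.

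Rounded expected counts entered edgeR 4.0.16 (R 4.3.3; two-sided quasi-likelihood test, genotype as the only term, TMM). The filterByExpr settings were 10 counts and a total of 15, and p-values were adjusted by Benjamini-Hochberg over 12677 genes, with a threshold of 0.05. SE is the absolute log2 fold change over the square root of F. FPKM values give levels, edgeR gives changes. The 12 alternatives included DESeq2 1.42.0 and limma 3.58.1 on log2(FPKM + 0.1) and log2(FPKM + 1). An exact permutation test of 2 against 2 libraries cannot pass 0.05 and was not used. The edgeR step was run on counts simulated with the dispersions fitted to these same libraries. Such a run cannot show whether the p-values hold if the replicates are technical.

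The members and lists were chosen with earlier results of these data known. Named genes are the members, up to 4 genes per list with the smallest adjusted p, Bfar, Il9, overlapping neighbours, and for each called member the 3 genes with the nearest pattern; other genes, such as Batf, Spi1, Tbk1, Psmb8 and Gbp6, were chosen after their values were seen. Some genes that this rule or the lists hold are not reported here. Promoters and coordinates are from RefSeq, GRCm38.p6, in which 8 of 8 members matched.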

Additional observations from a re-analysis of the deposited data

How the results depend on the processing

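All 7 tested members kept their direction in all 12 alternatives. Changes were called for 1728 genes higher and 1670 lower in BFAR-KO. These were 839 and 730 in DESeq2, 1051 and 877 with no filter on low counts, and 143 and 116 in limma on unfiltered log2(FPKM + 0.1), while the filtered version gave 1151 higher. Leaving out 1 library gave 812 to 1243 higher and 629 to 1112 lower genes. The number of lower IRF genes, 3 with all libraries, was 1 with no filter, 0 with unfiltered FPKM and 1 to 3 without 1 library. The cause was not tested.

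The replicate numbers do not pair the samples by any label, and the deviations of same-numbered libraries correlated at 0.00493 over genes. With the replicate number as a block, 1977 genes were higher and 1975 lower, and 1 IRF gene was called higher, Irf4 (adjusted p = 0.0494), beside the 3 that were lower. Of 42 other genes followed across the alternatives, 8 kept their call and direction in every alternative, 4 were called in none of the fits, and 0 values were reversed. Depth limits Irf7 most, at 4 to 13 counts per library.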

Other observations

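The genes whose pattern over the 4 libraries was nearest to that of a called member were found by the Euclidean distance between centred log2 CPM values, over the tested genes averaging 5 CPM or more. With 4 libraries that share depth and handling, a small distance is a description only. For Irf8 they were 2310036O22Rik (distance 0.00245), the glycosylation enzyme gene Mgat2 (0.00279) and the RNA-binding protein gene Hnrnpdl (0.0095). For Irf3 they were the ribosome biogenesis gene Krr1 (0.0217), the membrane protease gene St14 (0.0219) and Tatdn2 (0.0265). For Irf5 they were Dgat2, of triglyceride synthesis (0.0325), Gm5860 (0.0429) and Scrn2 (0.0504). 2310036O22Rik had 121.5 and 112.4 FPKM in BFAR-KO and 135.7 and 131.1 FPKM in WT, which tracks the order of the 4 libraries seen for Irf8.

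The gene length in the deposited tables is weighted over transcripts, so it moves with the estimated mix of isoforms. Irf8 stayed at 2856 bases in all 4 libraries to the nearest base. Irf5 had 2039 and 2053 bases in BFAR-KO and 2063 and 2035 in WT, and Irf9 had 2442 and 2411 in BFAR-KO and 2437 and 2433 in WT, with overlapping groups for both. Irf2 and Irf4 have a single length in the tables.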
